A study of Mus musculus with 10 samples.

Results

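Histone genes were examined in 10 single-cell RNA-seq libraries of mouse embryonic back skin. They were taken as all rows whose symbol starts with Hist1h, Hist2h, Hist3h or Hist4h, and a gene was kept at a stage where its libraries together held at least 50 UMIs, the unique molecular identifiers that count captured transcripts. This kept 65 of 71 histone gene IDs at any stage, among 33243 gene IDs listed in the series. Hist1h2bm is counted under different IDs at E16.5 and at the other stages, and Hist1h2al, kept at E16.5, is annotated as a processed pseudogene. At E15.5, 63 of 67 listed histone IDs were kept, at E16.5, 40 of 69, and at E17.5, 62 of 67, with 38 kept at all 3 stages. The 63 genes of E15.5 comprised 6 of H1, 16 of H2A, 16 of H2B, 12 of H3 and 13 of H4. Genes were thus chosen by their measured UMIs, so which ones are detected is a description. At E15.5 the lowest gene kept was Hist1h4m with 76 UMIs and the nearest below was Hist2h2aa2 with 2. At E16.5 Hist2h2bb, with 54 UMIs, and Hist1h4a, with 57, were just inside, and Hist1h2bg, with 47, and Hist1h2bb, with 45, just outside. At E17.5 Hist1h2ah was kept with 65 UMIs and Hist1h1t was left out with 39.

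The E15.5 libraries were 2 controls, numbered 2 and 3, and 2 MOF cKO embryos of genotype MOFfl/fl/K14Cre, numbered 5 and 6. The E16.5 libraries were controls 1 and 2 and MOF cKO 1 and 2, with the same genotype, and E17.5 had 1 control and 1 QPC cKO library of genotype QPCfl/fl/K14Cre. MOF, encoded by Kat8, is a histone H4 acetyltransferase, and QPC, encoded by Uqcrq, is a subunit of mitochondrial complex III. Cre was driven by the keratin 14 promoter, which is active in skin epithelium and not in fibroblasts. Controls were wild-type or heterozygous littermates on a mixed C57Bl/6J and CD-1 background. MOF cKO 6 is a mosaic embryo in the study's description, that is, with deletion in part of the epithelium. Each stage had its own version of the 10x chemistry per the labels, and the E16.5 files use another gene list than E15.5 and E17.5, so levels are compared within a stage. The comparisons ask whether histone transcripts changed when MOF or QPC was removed from the epithelium.

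Histones H2A, H2B, H3 and H4 form the octamer around which DNA is wrapped, and H1 binds the linker between octamers. Genes of the replication-dependent kind are transcribed in S phase, when new DNA must be packaged, and most lie in the large Hist1 cluster. Their mRNAs end in a conserved stem-loop, bound by the protein Slbp, in place of a poly(A) tail. Some of these genes also give polyadenylated transcripts from a signal further downstream, and replacement histones such as H2afz are polyadenylated and made outside S phase too. In embryonic skin the proliferating cells of the basal epidermis and dermis need this supply. Because 10x 3' libraries are primed on poly(A), a UMI of a histone gene counts a tailed transcript or one primed at an internal A-rich stretch, and levels of different genes do not rank their total mRNA.

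The stem-loops are shown because they mark the 3' end of histone mRNAs that lack a poly(A) tail. Genes with and without an annotated stem-loop were captured here. Of 64 genes matched to GENCODE M21 (mm10), 43 had a stem-loop within the annotated transcript, 21 had a poly(A) signal after the stem-loop or stop codon, and 14 were annotated to end within 3 bases of the stop codon. The 16-base stem-loops fell into 6 sequences, given as DNA 5′ to 3′, with the paired arms in capitals and the loop in lower case.
25 genes, among them Hist1h1c, Hist1h1d, Hist1h1e, Hist1h2ae, Hist1h2ap and Hist3h2a: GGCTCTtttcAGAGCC
7 H4 genes, among them Hist1h4d and Hist4h4: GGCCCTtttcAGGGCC
6 genes, among them Hist1h3c, Hist1h3e and Hist1h3f: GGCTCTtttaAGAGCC
Hist1h4i and Hist2h4: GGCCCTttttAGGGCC
Hist1h4b and Hist1h4j: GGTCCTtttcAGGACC
Hist2h2ac: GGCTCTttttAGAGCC
All H4 stem-loops differed in the arms from those of the other families. By position, 52 genes were on chromosome 13, 9 on chromosome 3, 2 on chromosome 11 and 1 on chromosome 6. The copies are close to each other: 30 of 64 shared over 50% of their 50-base words with another histone gene, and for Hist1h2ap the share was 93.1%. Values of such genes are uncertain, since reads of near-identical copies can be split or lost in counting.

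Promoter sequences are shown for 3 genes that the results turn on, since the families differ in the motifs they hold. RefSeq windows (GRCm38.p6, 250 bases before to 50 after the start) matched 57 of the 65 gene IDs. CCAAT, searched on both strands, was in all 6 H1, 15 H2A, 14 H2B and 10 H3 windows and in 3 of 12 H4 windows. This made 84.2% of histone windows, against 37.4% of 32851 windows of all genes. TATAAA was in 57.9% of histone windows and in 13.6% of all. The octamer ATTTGCAT was in 6 of 15 H2A and 5 of 14 H2B windows and in none of H1, H3 or H4, 19.3% of histone windows and 1.74% of all. Many H2A and H2B genes lie head to head, and 14 of the 57 histone windows overlapped that of another histone gene, so 1 motif can count for both genes. In these windows CCAAT and TATAAA, or their reverse complements, are in capitals.
Hist1h1b (chr13:21780576-21780875, minus strand): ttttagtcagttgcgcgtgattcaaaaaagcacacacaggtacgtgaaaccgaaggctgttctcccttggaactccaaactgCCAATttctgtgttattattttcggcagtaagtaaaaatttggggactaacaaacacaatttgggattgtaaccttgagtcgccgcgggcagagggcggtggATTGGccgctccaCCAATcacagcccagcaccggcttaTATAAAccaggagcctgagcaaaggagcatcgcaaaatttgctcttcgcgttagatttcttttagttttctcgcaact
Hist1h2ae (chr13:23571171-23571470, minus strand, facing Hist1h2bg): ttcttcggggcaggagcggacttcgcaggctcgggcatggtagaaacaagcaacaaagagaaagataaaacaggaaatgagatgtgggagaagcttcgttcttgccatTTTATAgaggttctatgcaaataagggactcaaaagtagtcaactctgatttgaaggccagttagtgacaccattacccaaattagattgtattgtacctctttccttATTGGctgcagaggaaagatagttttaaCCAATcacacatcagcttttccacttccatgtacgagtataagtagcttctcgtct
Hist1h4i (chr13:22041313-22041612, minus strand): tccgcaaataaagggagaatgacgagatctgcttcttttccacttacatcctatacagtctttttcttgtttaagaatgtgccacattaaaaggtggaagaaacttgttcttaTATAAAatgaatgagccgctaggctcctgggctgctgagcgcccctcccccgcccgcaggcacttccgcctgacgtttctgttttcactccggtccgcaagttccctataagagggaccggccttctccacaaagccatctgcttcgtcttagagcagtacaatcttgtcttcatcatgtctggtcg
Hist1h1b held CCAAT boxes close to its TATAAA, Hist1h2ae held them beside the start, and Hist1h4i held no CCAAT. A match is a sequence feature and was not tested for factor binding.

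Library depth was 13609345 to 203392303 UMIs, and kept cells (over 1000 and under 6000 genes, under 10% mitochondrial UMIs) had medians of 9600 to 22340 UMIs. Levels are given as CPM, the UMIs of a gene or list scaled to the same UMI total in every library and gate. Cells with at least 10 UMIs of Krt5 and Krt14 formed the epithelial gate, with 1061 to 2896 cells per library at E15.5, 1162 and 3069 at E17.5 and 266, 512, 30 and 39 at E16.5. Other cells with at least 30 UMIs of Col1a1 and Col3a1 formed the fibroblast gate, with 518 to 7389 cells. All 6 epithelial check markers were detected in every epithelial gate, summing to 2375 to 5928 CPM against 12.6 to 141 in the fibroblast gate. The E17.5 control had the highest fibroblast markers in its epithelial gate, where the 6, all detected, summed to 10764 CPM against 2190 in QPC cKO. Of its epithelial cells 41.9% also passed the collagen threshold, against 8.78% in QPC cKO. E16.5 control 1 came next with 28.9%, against 4.49% in control 2 and 0% and 7.69% in MOF cKO 1 and 2. Libraries of a stage shared at most 36 cell barcodes, and doublets were not called. Kat8 was at 13.0 and 14.0 CPM in E15.5 control epithelium and 13.0 and 10.0 in MOF cKO, at E16.5 at 17.6 and 14.8 against 8.66 and 3.75, where the last values rest on 5 and 3 UMIs. In fibroblasts it was at 9.18 and 9.62 against 6.83 and 5.98 at E15.5, and at 9.60 and 8.23 against 2.81 and 5.39 at E16.5, so it was lower in MOF cKO in that gate too, with no overlap. Uqcrq at E17.5 was at 106 in control and 43.9 in QPC cKO epithelium, and at 69.4 and 122 in fibroblasts. The 3' tags may lie outside the deleted exons, so these levels do not check the labels.

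At E15.5 histone genes summed to 1695 and 1713 CPM in control epithelium and to 1020 and 1215 in MOF cKO 5 and 6. Fibroblasts held 1597 and 1558 in controls and 1436 and 1130 in MOF cKO. Both MOF cKO libraries were below both controls in each gate, and the log2 ratio of the group means was -0.61 in epithelium and -0.30 in fibroblasts. A few genes supplied most of the sum: Hist1h1b alone gave 26.5% to 36.7% of histone UMIs per library and the H1 family 44.7% to 58.4%. Hist1h1b encodes a linker histone of dividing cells, and in its single annotated transcript (chr13:21779883-21780625, minus strand, 743 bases) the model ends at the stop codon. Summed levels describe the gene list and were given no test, because its members were chosen with these data known.

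Hist1h1b, Hist1h1e and Hist1h2ae were the 3 highest histone genes in both gates at E15.5. By mean CPM over the 4 libraries they were followed in epithelium by Hist1h2bc, Hist1h2ap, Hist1h1c, Hist1h3c and Hist1h4i, and in fibroblasts by Hist1h2ap, Hist1h3c, Hist1h2bc, Hist1h1c and Hist1h4d. Hist1h1e, another linker histone, shares its strand and position with Hist1h2be, so its reads cannot be fully assigned. Hist1h2ae stood at 159 and 206 CPM in controls, and Hist1h2ap, also an H2A gene, at 54.5 and 109, with control 3 the higher. In epithelium Hist1h1b overlapped no other gene over the 4 libraries, and the neighbours below it in the order overlapped. The other stages had another chemistry and E16.5 another gene list, so their order of genes is not compared with this one. At E16.5 H2A genes gave 37.5% to 68.2% of histone UMIs per library, and Hist1h2ap was the leading gene in 7 of 8 library and gate combinations, with counts that depend on how its shared sequence was assigned. At E17.5 Hist1h1c led both control gates and QPC cKO epithelium, and Hist1h2ap led QPC cKO fibroblasts.

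**Figure D1:**
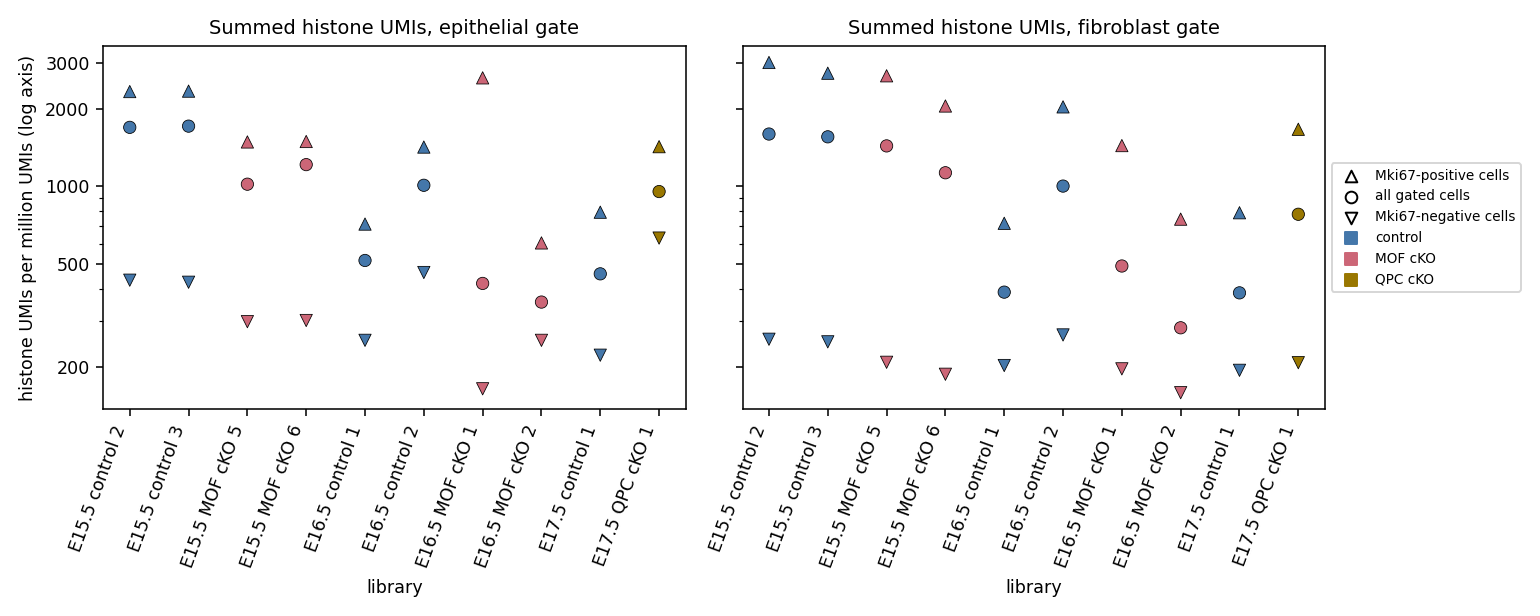
Summed histone CPM (log axis) for each of the 10 libraries in the epithelial and the fibroblast gate, for all gated cells (circles), Mki67-positive cells (upward triangles) and Mki67-negative cells (downward triangles). Mki67-positive cells lie above Mki67-negative cells in every library, and the control and MOF cKO libraries of E15.5 do not overlap among all epithelial cells, at 1695 and 1713 against 1020 and 1215.

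Histone transcripts were concentrated in dividing cells. Mki67 encodes a nuclear protein of cycling cells, and cells with at least 1 Mki67 UMI were compared with the other cells of the same E15.5 library, over all 4 libraries, with the library as a block. In epithelium histone genes summed to 2333 and 2343 CPM in Mki67-positive cells of controls and to 1488 and 1494 in MOF cKO, against 433 and 425, and 299 and 302, in Mki67-negative cells. In fibroblasts the values were 3025, 2749, 2686 and 2051 in Mki67-positive and 256, 250, 208 and 187 in Mki67-negative cells, in the order control 2, control 3, MOF cKO 5 and MOF cKO 6. Every Mki67-positive value was above every Mki67-negative value in its gate. Mki67-positive cells held 88.5% to 94.2% of histone UMIs.

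By edgeR's quasi-likelihood test with Benjamini-Hochberg adjustment over all genes, 52 of 57 tested histone genes were higher in Mki67-positive epithelial cells, against 8.08% of all genes, and 0 were lower, against 5.72%. In fibroblasts 57 of 60 were higher, against 27.2% of all genes, and 1 was lower, Hist3h2a, against 28.6%. The median log2 fold change over histone genes was 2.20 in epithelium and 3.11 in fibroblasts, beside -0.03 and -0.02 over all genes. Hist1h1b was at 836 and 687 CPM in Mki67-positive and 70.6 and 58.3 in Mki67-negative control epithelium, and at 418 and 463 against 42.0 and 40.9 in MOF cKO. Its log2 fold change was 3.44 (SE 0.0592, edgeR adjusted p = 3.70e-08) and in fibroblasts 5.86. Hist1h2af, an H2A gene, had the greatest fold change in both gates, 4.64 and 6.67, from 20 and 18 UMIs in all Mki67-negative cells. Hist1h1e rose by 2.20 and 3.24 on the log2 scale. Cells with an Mki67 UMI were also deeper, with medians of 18856.5 to 22627.5 against 13291 to 16169 UMIs in epithelium. After thinning each cell to 5000 UMIs and calling Mki67 on the thinned UMIs, Mki67-positive epithelial cells held a mean of 12.7, 13.6, 9.71 and 8.13 histone UMIs and the others 3.74, 3.37, 2.14 and 2.66, in the same order of libraries. In fibroblasts these means were 11.3 to 16.47 against 1.18 to 1.79, so the difference was also present at equal depth. In muscle-gated cells of the 4 E15.5 libraries, a tissue whose mature fibres do not divide, 6 of 27 (22.2%) had an Mki67 UMI, but these cells are few and can include myoblasts, which do divide.

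Hist1h2bc, an H2B gene, stood outside this pattern. Its spliced transcript (chr13:23684199-23692908, plus strand) runs 742 bases past the stop codon to a poly(A) signal. In epithelium it was at 102 and 128 CPM in Mki67-positive and 97.9 and 117 in Mki67-negative cells of controls, and at 47.5 and 58.6 against 32.4 and 51.5 in MOF cKO. The log2 difference was 0.16 (edgeR adjusted p = 0.198) in epithelium and 0.03 in fibroblasts, so it did not pass the test in either gate. In Mki67-negative cells Hist1h2bc was the most abundant histone gene in 7 of 8 library and gate combinations. Hist3h2a, a lone H2A gene on chromosome 11 (chr11:58954685-58956830, plus strand) that overlaps Trim17 on its strand, was 0.63 higher in epithelium and fell by 0.22 on the log2 scale in fibroblasts (SE 0.0529, edgeR adjusted p = 0.00349). Its 1700 bases after the stop codon also hold a poly(A) signal. The other genes that did not pass in epithelium were Hist1h2ao at 1.66, Hist1h4a at 0.46, Hist2h3c2 at 0.71 and Hist1h4j at 0.64, and in fibroblasts Hist3h2ba at 0.12.

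Genes with an annotated poly(A) signal differed less between Mki67-positive and Mki67-negative cells than genes without. The medians of the log2 fold change were 1.50 over 20 genes with a signal and 2.67 over 37 without in epithelium, and 2.05 over 20 and 3.46 over 40 in fibroblasts. A log2 fold change over 2 was seen in 6 of 20 (30%) against 26 of 37 (70.3%) in epithelium and in 11 of 20 (55%) against 35 of 40 (87.5%) in fibroblasts. This split was made from the annotation and is a description, since genes that share sequence are not independent. Genes annotated to end within 3 bases of the stop codon, such as Hist1h1b, count as without a signal, since they hold no sequence to search. By family, the epithelial medians were 2.28 for H1, 3.05 for H2A, 2.41 for H2B, 2.06 for H3 and 1.54 for H4, and the fibroblast medians 4.24, 3.99, 3.03, 3.18 and 2.13. H4 had the lowest median in both gates. Within H1, Hist1h1c, whose transcript runs 880 bases past the stop codon to a poly(A) signal, rose by 0.84 in epithelium and 2.05 in fibroblasts on the log2 scale, less than Hist1h1b and Hist1h1e. Hist1h1d, which also has a poly(A) signal, rose by 2.28 and 4.24, while Hist1h1e, which has none annotated, rose by 2.20 and 3.24, so the split did not hold for every H1 gene.

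**Figure D2:**
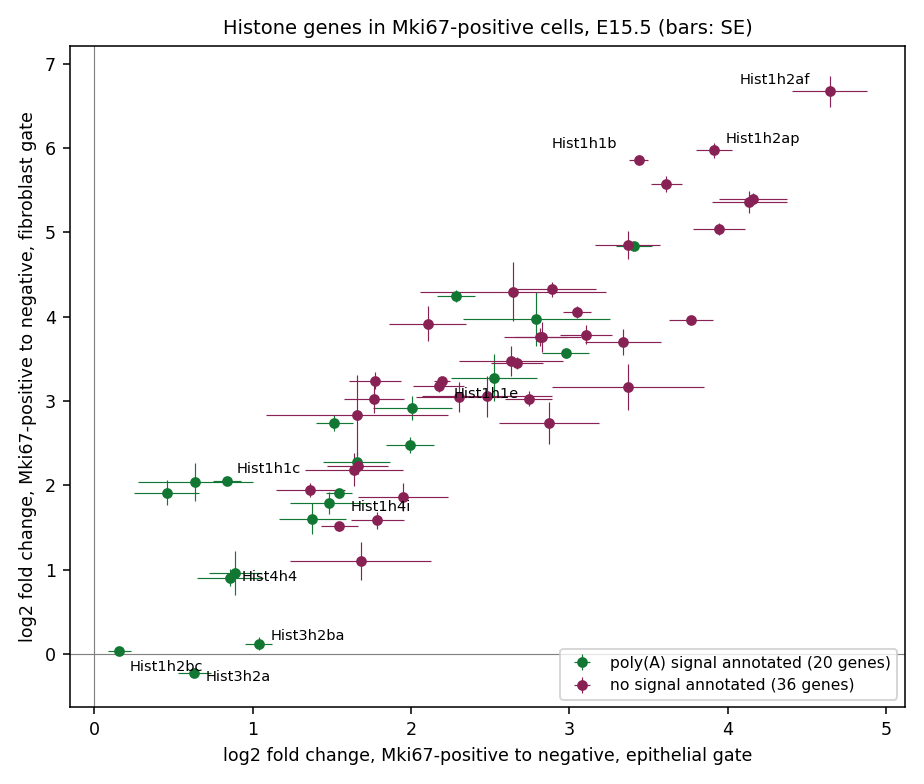
Log2 fold change between Mki67-positive and Mki67-negative cells at E15.5 for 56 histone genes tested in both gates, with the epithelial gate on the horizontal and the fibroblast gate on the vertical axis (bars, SE from edgeR over 4 libraries). The 20 genes with an annotated poly(A) signal, Hist1h2bc and Hist3h2a among them, include those nearest 0, and most of the 36 without one lie further up and to the right.

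Mki67-positive cells were also split by whether S-phase or G2M-phase list genes had more UMIs, a split chosen after seeing the data. At E15.5 histone genes summed to 1033 to 1693 CPM in cells with more S-phase UMIs and to 1527 to 3362 in the others, and in each of the 8 library and gate combinations the S-phase side was lower. For example, control 2 fibroblasts had 1693 in 380 cells with more S-phase UMIs and 3362 in 1458 others. Between 14 and 148 cells per combination lay within 2 UMIs of the border. The lists hold 38 S-phase and 50 G2M genes, and their UMIs were compared unscaled in cells chosen by Mki67. The other cells still held medians of 24.5 to 47 S-phase UMIs, so the 2 sides are not pure phases.

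Genes that act with histones were compared in the same way, beside the 8.08% of all genes that were higher and 5.72% that were lower in epithelium, and 27.2% and 28.6% in fibroblasts. Of 11 replacement histones, 8 were higher in Mki67-positive epithelium and 10 in fibroblasts, and 0 were lower. H2afz, a replacement H2A, rose by 0.88 and 1.56 on the log2 scale, H2afx, the H2A form phosphorylated at DNA breaks, by 2.32 and 2.47, and the centromere histone Cenpa by 2.92 and 3.68. Of 14 tested genes of histone mRNA processing, 4 rose and 2 fell in epithelium and 11 rose and 1 fell in fibroblasts. Slbp rose by 0.55 and 1.02. Of 20 histone chaperones, 7 rose and 1 fell in epithelium and 14 rose and 3 fell in fibroblasts, led by Asf1b, which hands H3 and H4 to assembly factors, at 1.66 and 3.47. All 50 G2M genes were higher in both gates (Top2a 3.81 and 5.42), and of 38 S-phase genes 23 rose and 6 fell in epithelium and 35 rose and 1 fell in fibroblasts (Tyms 1.48 and 2.31). These calls rest on edgeR adjusted p-values over all genes. Because the cells were split by Mki67, a gene of cycling cells, higher G2M genes are largely built into the split and only describe it. Cenpa is also in the G2M list.

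In E15.5 epithelium 7 of the 8 most abundant histone genes had a lower mean in MOF cKO than in control and Hist1h4i had a higher one, but none passed the test over all genes. Hist1h1b was at 579 and 480 CPM in controls 2 and 3 and at 270 and 364 in MOF cKO 5 and 6. Hist1h1e was at 204 and 192 against 99.3 and 133, and Hist1h2ae at 159 and 206 against 98.8 and 119. In each of these genes both MOF cKO libraries were below both controls. Hist1h2bc was at 101 and 125 against 41.5 and 56.9, the lowest p among histone genes. Hist1h2ap, at 54.5 and 109 against 37.1 and 73.8, overlapped between the groups. Hist1h1c was at 52.6 and 46.8 against 33.5 and 43.7, Hist1h3c, an H3 gene, at 55.5 and 53.0 against 30.1 and 29.2, and Hist1h4d, an H4 gene, at 40.6 and 37.3 against 22.9 and 22.5. These 3 did not overlap.

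By edgeR, 0 of 59 tested histone genes passed an adjusted p of 0.05 in epithelium, against 0% of all genes, and 15 (25.4%) had an unadjusted p under 0.05, beside 9.30% of all genes. Hist1h2bc had a log2 fold change of -1.08 (SE 0.155, edgeR adjusted p = 0.503), Hist1h1e of -0.65, Hist1h2ae of -0.63 and Hist1h1b of -0.62 (SE 0.139), all with the same adjusted p. DESeq2 called 2, Hist1h2bc (log2 fold change -1.07, adjusted p = 0.000387) and Hist1h1e (-0.64, adjusted p = 0.0325), against 0.903% of all genes. The median log2 fold change was -0.29 over histone genes and -0.01 over all genes. Fold changes were below 0 for 41 of 59: for 5 of 5 H1 genes (median -0.34), 10 of 15 H2A (-0.44), 13 of 16 H2B (-0.24), 8 of 12 H3 (-0.24) and 5 of 11 H4 (0.09). Without MOF cKO 6, the library described as mosaic, 18 of 62 histone genes were called, 7 higher and 11 lower, beside 45.5% of all genes. In that fit MOF cKO 5 is a lone library, assumed to vary as the controls do.

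Of 58 histone genes with at least 50 UMIs in E15.5 epithelium, 35 were below with no overlap between the groups, against 32.2% of all genes, and 7 were above, against 18.7%. The 7 above were Hist1h4i, Hist4h4, Hist2h4, Hist1h3d, Hist2h3c1, Hist2h3c2 and Hist1h2ac, that is 3 of H4, 3 of H3 and 1 of H2A. Of these 7, 5 have a poly(A) signal, as do 10 of the 35 below and 5 of the 16 that overlapped. Hist1h4i, an H4 gene (chr13:22040636-22041362, minus strand) with a poly(A) signal after its stem-loop, was at 36.9 and 32.7 CPM in controls and 57.3 and 40.9 in MOF cKO. Hist4h4, the lone H4 gene of chromosome 6, was at 2.95 and 2.76 against 5.73 and 4.79, and Hist2h3c1 at 1.70 and 1.84 against 3.52 and 3.05. Their log2 fold changes were 0.66 (SE 0.280), 1.02 (SE 0.299) and 1.03 (SE 0.317), all with edgeR adjusted p = 0.503. Hist1h3d was at 9.70 and 11.9 against 16.8 and 13.5, and Hist1h2ac at 15.2 and 21 against 21.6 and 32.7.

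**Figure D3:**
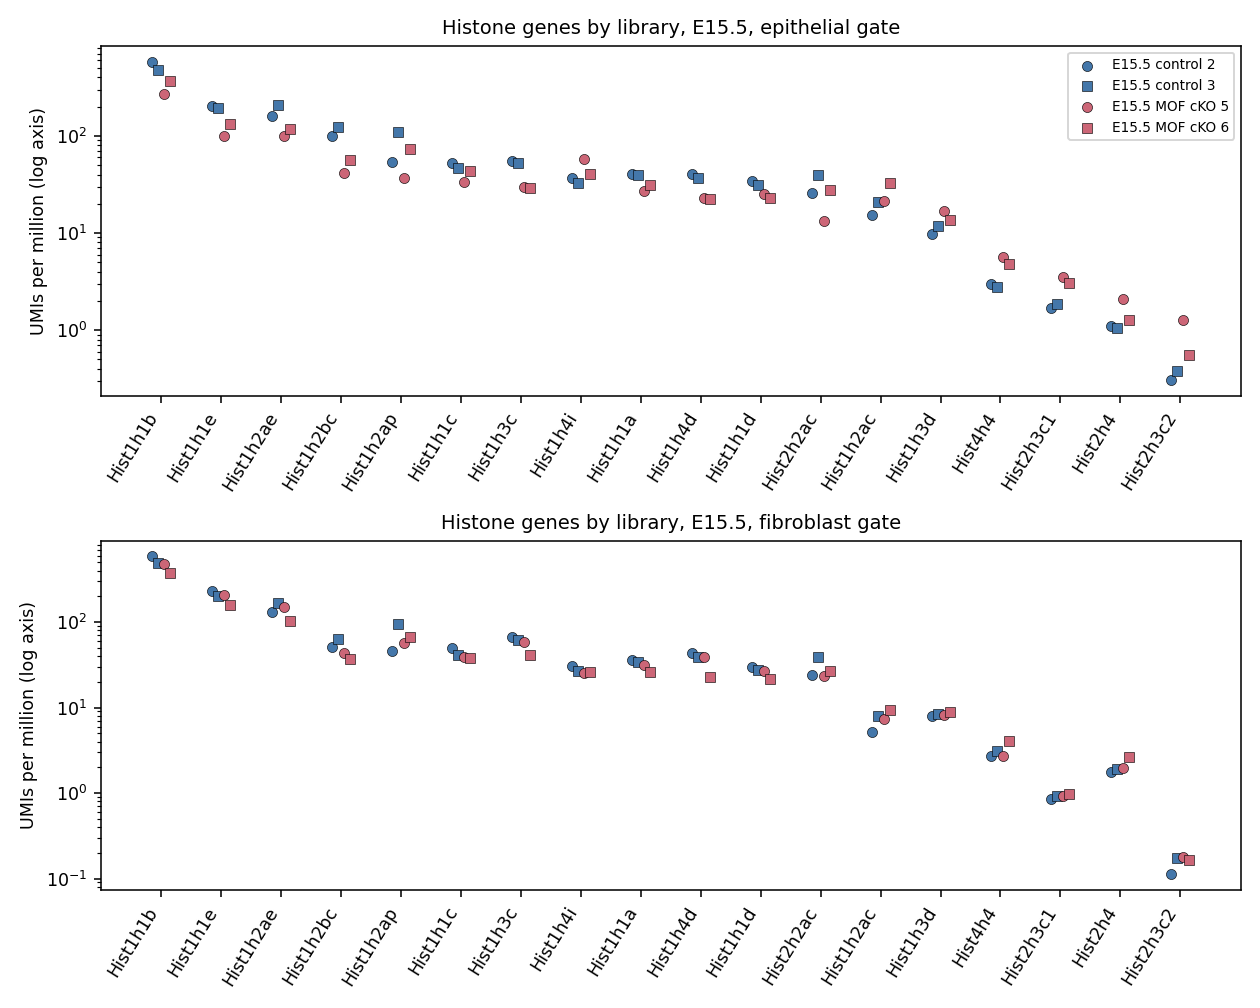
CPM (log axis) of single histone genes in the 4 libraries of E15.5, controls 2 and 3 and MOF cKO 5 and 6, in the epithelial and the fibroblast gate. Hist1h1b lies lower in both MOF cKO libraries in epithelium (270 and 364 against 579 and 480), and Hist1h4i lies higher there (57.3 and 40.9 against 36.9 and 32.7) and not in fibroblasts.

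In E15.5 fibroblasts, cells in which K14Cre is not expected to act, Hist1h1b, Hist1h1e and Hist1h2ae were again the 3 highest histone genes. Hist1h1b was at 586 and 488 CPM in controls and at 477 and 375 in MOF cKO, Hist1h1e at 232 and 203 against 205 and 157, and Hist1h2ae at 131 and 169 against 149 and 103. Hist1h1b was below with no overlap, and the other 2 overlapped. Hist1h2bc was at 50.5 and 62.9 against 43.3 and 37.4, with a log2 fold change of -0.51 (SE 0.136, edgeR adjusted p = 0.222). Hist1h4i was at 30.8 and 26.8 against 25.2 and 25.9, lower where in epithelium it was higher. By edgeR 0 of 63 histone genes were called, against 0% of all genes, 6 (9.52%) had an unadjusted p under 0.05, beside 15.6% of all genes, and DESeq2 called 1, Hist1h2bc, against 3.04% of all genes. The median was -0.30 beside 0.00 over all genes, and 55 of 63 fold changes were below 0. Without overlap, 27 of 61 were below, against 20.4% of all genes, and 3 above, against 26.7%: Hist2h4, Hist2h3c1 and Hist2h2be.

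Marker levels differed between the groups beside these values, and their part in the differences was not tested. The 6 epithelial markers, all detected, summed to 4959 and 5086 CPM in epithelium of controls and to 2375 and 3940 in MOF cKO. The 6 fibroblast markers, all detected, summed to 1206 and 1114 in that gate against 1528 and 1372, and 6.57% and 6.66% of epithelial cells against 13.0% and 9.16% also passed the collagen threshold. With those cells left out, the log2 ratio of summed histone CPM was -0.62. The 3 erythroid markers, all detected, summed to 4040 to 11406 in both gates at E15.5. The share of epithelial cells with an Mki67 UMI was 58.4% and 60.3% in controls and 53.9% and 70.1% in MOF cKO (after thinning each cell to 5000 UMIs, 43.6% and 43.7% against 36.4% and 51.9%), so the groups overlapped. In fibroblasts it was 42.0% and 45.8% against 41.6% and 42.7%. All histone UMIs of a gate divided by its number of Mki67-positive cells came to 49.95 and 56.5 in control epithelium and 40.5 and 36.2 in MOF cKO, a log2 ratio of group means of -0.47. In fibroblasts they came to 46.5 and 48.2 against 43.0 and 34.7, a log2 ratio of -0.29. Fewer cells in S phase and fewer histone transcripts per cell cannot be told apart in such sums.

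Within Mki67-positive cells alone the pattern was similar. In epithelium Hist1h1b was at 836 and 687 CPM in controls and 418 and 463 in MOF cKO, and Hist1h2bc at 102 and 128 against 47.5 and 58.6. By edgeR 0 of 58 histone genes were called, against 0% of all genes, 14 (24.1%) had an unadjusted p under 0.05, beside 7.44% of all genes, and DESeq2 called 2, Hist1h2bc and Hist1h2ab, an H2A gene, against 0.633%. In fibroblasts 0 of 60 were called, against 0%, with 6 (10%) at an unadjusted p under 0.05, beside 15.95% of all genes, and DESeq2 called 1, Hist1h2bc, against 2.1%. The epithelial count changed when either MOF cKO library was left out. Without MOF cKO 5, 15 of 61 histone genes were called, all lower in MOF cKO 6, against 1.19% of all genes. They included Hist1h3c (-1.12, edgeR adjusted p = 0.00571), Hist1h3e (-1.20), Hist1h4d (-1.02), Hist1h2af (-1.34) and Hist1h1e (-0.73). Without MOF cKO 6, 21 were called, 9 higher and 12 lower, against 44.5% of all genes. Each of these fits rests on a single MOF cKO library, assumed to vary as the controls do.

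The epithelial and fibroblast effects of MOF cKO were compared by an interaction term. At E15.5, 0 of 62 histone genes differed between gates by edgeR, against 0% of all genes, and 2 (3.23%) had an unadjusted p under 0.05, beside 7.24% of all genes. Hist1h4i, higher in MOF cKO epithelium and lower in MOF cKO fibroblasts, was the 1 of 63 called without MOF cKO 5 (0.44, edgeR adjusted p = 0.0427), against 2.45% of all genes. It was also called, at 1.14, among 19 of 63 without MOF cKO 6, against 37.5% of all genes. At E16.5, 0 of 38 differed between gates, against 0.38% of all genes, while 1 (2.63%) passed an unadjusted p of 0.05, beside 20.1% of all genes. Without control 1 the H2B gene Hist3h2ba was called, 1 of 40, against 5.06% of all genes. Between the stages, 0 of 38 epithelial effects differed, against 0.11% of all genes, and 2 (5.26%) had an unadjusted p under 0.05, beside 16.3% of all genes. Hist1h1c had the smallest p among histone genes, with a stage difference of 1.36 (edgeR adjusted p = 0.167), and was the 1 of 38 that DESeq2 called there, against 4.93% of all genes. Between gates DESeq2 called 0 of 62 at E15.5, against 0.188% of all genes, and 0 of 38 at E16.5, against 4.02%.

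At E16.5 the libraries of a group differed widely. Hist1h2ap was at 117 and 367 CPM in epithelium of controls 1 and 2 and at 142 and 43.7 in MOF cKO 1 and 2. Fibroblasts gave 80.4 and 421 against 183 and 55.1, the same order of libraries. The 3 erythroid markers, all detected, had that order too, at 1582 and 9572 CPM in control epithelium against 1998 and 806, and at 2618 and 8283 against 4934 and 1824 in fibroblasts, and their part in these levels was not tested. Hist1h2ae was at 30.1 and 141 against 26.0 and 16.2 in epithelium and at 16.1 and 98.6 against 36.7 and 13.5 in fibroblasts. Hist1h2ak, an H2A gene annotated to end at its stop codon, ran from 2.50 to 85.9 in epithelium and from 3.22 to 88.1 in fibroblasts. For all 3 of these H2A genes control 2 was the highest library in both gates. Over histone genes with at least 50 UMIs, control 2 was highest for 11 of 17 in epithelium and 24 of 31 in fibroblasts. The same count was not made over all genes, so this order is not shown to be particular to histone genes.

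Not every histone gene had its highest level in control 2. Hist1h1c, a linker histone with a poly(A) signal, was at 40.5 and 31.4 CPM in control epithelium and 69.2 and 38.7 in MOF cKO, and at 37.1 and 25.6 against 41.4 and 42.5 in fibroblasts. Hist3h2a was at 43.9 and 45.0 against 20.8 and 61.2, and at 20.4 and 19.8 against 25.3 and 27.1. Hist1h2bc was at 51.6 and 42.1 against 8.66 and 56.2, and at 62.7 and 35.3 against 33.1 and 40.2. In fibroblasts Hist1h1c and Hist3h2a were above with no overlap, and Hist1h2bc overlapped. The linker genes Hist1h1b (46.4 and 58.2 against 12.1 and 25.0 in epithelium, 39.2 and 78.7 against 16.7 and 18.5 in fibroblasts) and Hist1h1e (37.9 and 65.2 against 5.19 and 13.7, 33.9 and 81.8 against 15.4 and 21.8) were below with no overlap in both gates, with control 2 the highest library.

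**Figure D4:**
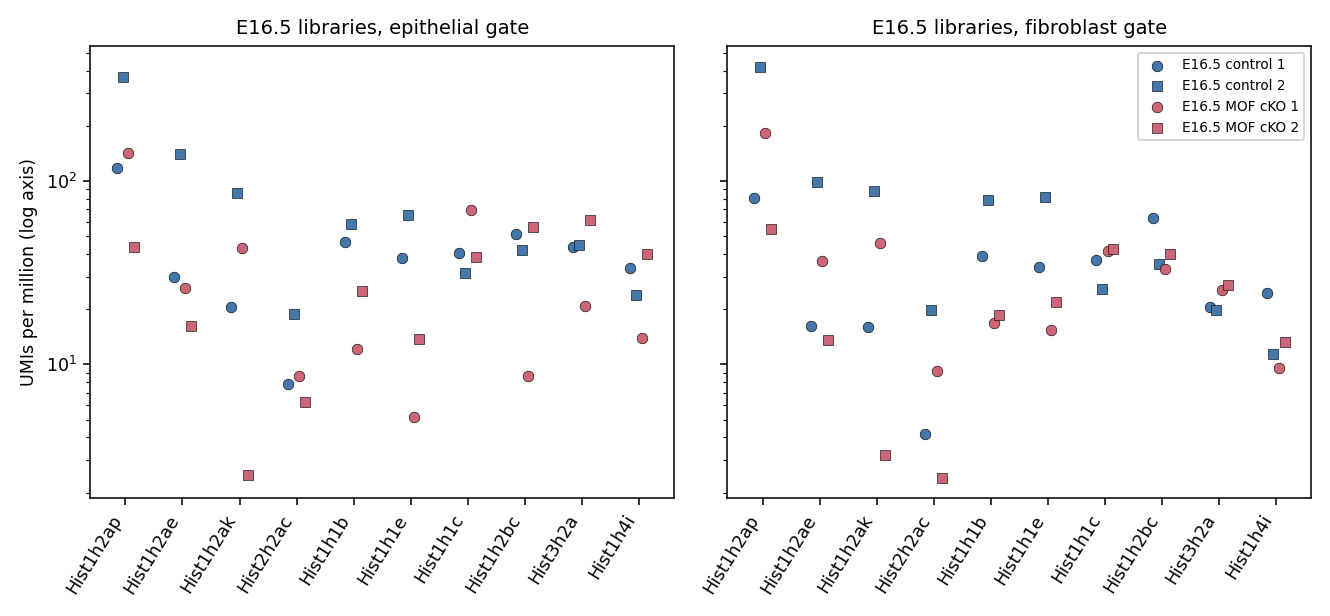
CPM (log axis) of 10 histone genes in the 4 libraries of E16.5, controls 1 and 2 and MOF cKO 1 and 2, in the epithelial and the fibroblast gate. Hist1h2ap runs from 43.7 to 367 in epithelium and from 55.1 to 421 in fibroblasts with control 2 highest in both, whereas Hist1h1b lies lower in both MOF cKO libraries.

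By edgeR, 0 of 16 tested histone genes were called in E16.5 epithelium, against 5.82% of all genes. DESeq2 called 0 of them, against 8.69%. By edgeR, 2 had an unadjusted p under 0.05 (12.5%, beside 28.1% of all genes). Without control 1, 2 of 12 were called, Hist1h1e and Hist1h2ae, both lower, against 8.53% of all genes. In fibroblasts 0 of 35 were called, against 4.64%, with 5 at an unadjusted p under 0.05 (14.3%, beside 25.2%). Hist1h1e in epithelium had a log2 fold change of -1.85 (SE 0.570, edgeR adjusted p = 0.104), and Hist1h1b in fibroblasts of -1.66 (SE 0.390, edgeR adjusted p = 0.0734). DESeq2 called Hist1h1b, Hist1h1e and Hist1h1a, also a linker gene, in fibroblasts, all lower, that is 3 of 35 against 7.56% of all genes, and without control 1 edgeR called 2 of 40, Hist1h1b and Hist1h1e, against 2.75% of all genes. Of 17 histone genes in epithelium 7 were below with no overlap, against 58.2% of all genes, and 0 above, against 11.2%. Of 31 in fibroblasts 7 were below, against 36.4%, and 2 above, against 17.6%. The median log2 fold change was -0.57 over histone genes in epithelium and -0.58 in fibroblasts, beside -0.11 and 0.01 over all genes. Without control 2 these medians were 0.43 over 11 tested histone genes and 0.58 over 26. The direction of the median thus turns with this library. The log2 fold changes of Hist1h1b and Hist1h1e stayed below 0 in both gates, and those of Hist1h2ap, Hist1h2ae and Hist1h2ak rose above 0. Within Mki67-positive cells alone, Hist1h1b was at 77.8 and 86.2 CPM in control epithelium against 117 and 76.6 in MOF cKO. In fibroblasts it was at 93.9 and 176 against 67.3 and 84.4. Hist1h1e was at 60.5 and 92.0 against 50.1 and 38.3, and in fibroblasts at 72.7 and 167 against 50.5 and 76.1. Hist1h1b thus overlapped in epithelium and Hist1h1e in fibroblasts. The epithelial values of MOF cKO rest on 30 and 39 cells, and 2 and 11 of those had an Mki67 UMI.

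The summed level at E16.5 was 516 and 1010 CPM in control epithelium and 421 and 356 in MOF cKO, and 389 and 1003 against 491 and 283 in fibroblasts. The groups overlapped in fibroblasts and not in epithelium, where 58.2% of all genes with at least 50 UMIs were also below with no overlap. The log2 ratio of group means was -0.97 in epithelium and -0.85 in fibroblasts, and without control 2 it was -0.41 and -0.01. CPM is scaled to the UMI total alone, and on that scale the median over all genes in epithelium was also below 0 (given below). Within Mki67-positive cells the mean was 12.5 and 25.0 histone UMIs per cell in control epithelium and 79 and 12.9 in MOF cKO, where 79 rests on 2 cells, and 8.86 and 25.2 against 23.8 and 11.1 in fibroblasts. The groups overlapped in both gates. Mki67-positive cells held 78.9% and 80.3% of histone UMIs in control epithelium and 65.0% and 49.8% in MOF cKO, so dividing all histone UMIs of a gate by its Mki67-positive cells also counts those of Mki67-negative cells. This quotient was 15.8 and 31.1 in control epithelium and 121.5 and 25.9 in MOF cKO, a log2 ratio of 1.65, and 0.14 without MOF cKO 1. In fibroblasts it was 13.3 and 29.8 against 34.2 and 19.9, a log2 ratio of 0.33, and -0.12 without MOF cKO 1. These values overlapped between the groups in both gates. The share of cells with an Mki67 UMI was 47.4% and 48.0% in control epithelium against 6.67% and 28.2% in MOF cKO, and 32.1% and 35.4% against 18.7% and 16.8% in fibroblasts, with no overlap in either gate. Its part in the histone levels was not tested. In the 6 fibroblast markers, all detected, control epithelium had 4529 and 1446 CPM and MOF cKO 460 and 614.

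Other lists had genes called at E16.5, where 4.68% of all genes were higher and 1.14% lower in epithelium, and 2.43% and 2.21% in fibroblasts. With library size alone these shares were 2.65% and 5.52% in epithelium, and 2.75% and 3.91% in fibroblasts. In epithelium 10 of 50 G2M genes were lower (Ccnb2, which drives entry into mitosis, fell by 3.32 on the log2 scale), as were 4 of 38 S-phase genes (Tyms -2.04), and none was higher. In fibroblasts 26 of 50 G2M and 23 of 38 S-phase genes were lower. The chaperone Asf1b was lower in both gates, -1.64 (edgeR adjusted p = 0.0449) and -1.50, and 5 of 20 chaperones were lower in fibroblasts, among them Chaf1a and Chaf1b, which load new H3 and H4 behind the fork, at -1.07 and -1.60. Among 11 replacement histones H2afj was higher in epithelium, 2.43 (edgeR adjusted p = 0.0308), and Cenpa, H2afx and H2afy2 were lower in fibroblasts, -0.90, -0.97 and -0.86. None of 13 tested genes of histone mRNA processing was called in either gate, and Slbp was at -1.01 (edgeR adjusted p = 0.0736) and -0.96 (edgeR adjusted p = 0.0629). These calls depend on single libraries, in fits that then leave 1 library in a group. Without MOF cKO 1 in epithelium, and without control 2 or either MOF cKO library in fibroblasts, list calls were lost. Most calls over all genes were lost in these fits too. In cells low in Krt1 and Krt10 none of the 5 lists had a gene called in epithelium, against 0.243% of all genes. Asf1b in epithelium was called in 5 of 13 alternatives, with log2 fold changes of -2.25 to -1.33, and Ccnb2 in 11 of 13. No list gene called at E16.5 with all libraries changed sign under an alternative. At E15.5 none of the 5 lists had a gene called in either gate.

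At E17.5, with 1 library per group and so no replicate check and no test, histone genes were higher in QPC cKO in both gates. They summed to 458 CPM in control epithelium and 955 in QPC cKO epithelium, and to 387 and 780 in fibroblasts. Of 50 histone genes with at least 50 UMIs in the epithelial gate, 29 were over 2-fold higher, against 2.3% of all genes, and 0 over 2-fold lower, against 15%. Of 48 in fibroblasts, 30 were over 2-fold higher, against 2.6%, and 0 lower, against 2.79%. All 50 ratios were above 1 in epithelium and 46 of 48 in fibroblasts, with median log2 ratios of 1.19 and 1.21 beside -0.02 and 0.10 over all genes. Intervals below are exact 95% intervals that cover counting error only.

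Hist1h1d, a linker histone whose transcript (chr13:23553262-23560686, plus strand) runs 4931 bases past the stop codon to a poly(A) signal, stood at 5.41 CPM in control and 63.2 in QPC cKO epithelium, a ratio of 11.7 (10.5 to 13.1). In fibroblasts it went from 3.61 to 9.71, a ratio of 2.69 (2.22 to 3.27). In epithelium it was high with or without Mki67, at 60.0 in Mki67-negative and 67.9 in Mki67-positive cells of QPC cKO against 2.33 and 9.79 in control. Hist2h3b, an H3 gene, had the ratio 12.9 (8.17 to 21.1), from 0.315 to 4.05. The ratios of Hist1h2bg, Hist2h2aa1 and Hist1h3a in epithelium were 7.70, 7.65 and 5.87.

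The abundant genes had different ratios in the gates, which was not tested. Hist1h1c was at 62.1 in control and 154 in QPC cKO epithelium, a ratio of 2.48 (2.38 to 2.58), and at 74.7 and 55.5 in fibroblasts, a ratio of 0.743. Hist1h2bc was at 56.8 and 93.2 in epithelium, a ratio of 1.64 (1.56 to 1.72), with a fibroblast ratio of 0.860. Hist1h2ap went from 60.2 to 110 in epithelium, a ratio of 1.83, and from 53.6 to 195 in fibroblasts, a ratio of 3.64 (3.47 to 3.82). Hist1h2ae in fibroblasts went from 29.8 to 95.4, a ratio of 3.21, and Hist1h1b from 47.2 to 115, a ratio of 2.44. Hist1h1e was alike in both gates, from 41.8 to 86.7 and from 30.7 to 68.7, ratios of 2.08 and 2.23. Hist1h1c and Hist1h2bc were the 2 of the 48 with a fibroblast ratio below 1. Both have a poly(A) signal, as do 21 of the 64 genes matched to the annotation.

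**Figure D5:**
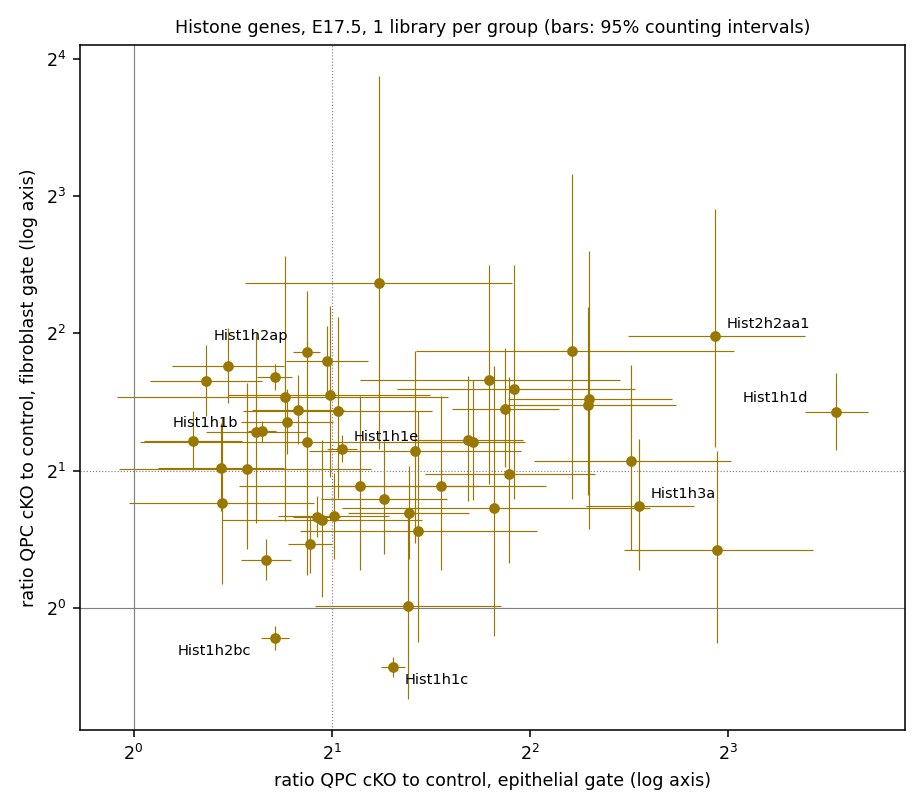
Ratio of CPM between QPC cKO and control at E17.5 for 48 histone genes, with the epithelial gate on the horizontal and the fibroblast gate on the vertical axis (both log axes, bars are 95% counting intervals, dotted lines mark 2-fold). Hist1h1d lies far to the right at 11.7 against 2.69, and Hist1h1c and Hist1h2bc lie below 1 in fibroblasts, at 0.743 and 0.860.

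The Mki67 share at E17.5 was 39.6% in control and 38.7% in QPC cKO epithelium (21.2% and 21.8% after thinning to 5000 UMIs), and 30.6% and 34.8% in fibroblasts (18.2% and 24.1% after thinning), and the part of this share in the histone levels was not tested. Within Mki67-positive cells the mean was 19.7 histone UMIs per cell in control and 37.0 in QPC cKO epithelium, and 17.1 and 36.4 in fibroblasts. Mki67-positive cells held 71.6% and 60.9% of histone UMIs in epithelium and 66.1% and 83.9% in fibroblasts. Mki67-negative epithelium had 222 CPM of histone genes in control and 631 in QPC cKO, while Mki67-negative fibroblasts had 194 and 207. Mki67-positive cells had 795 and 1426 in epithelium and 791 and 1667 in fibroblasts. So the Mki67-negative cells differed in epithelium and little in fibroblasts. The fibroblast markers of the control epithelial gate, at 10764 against 2190 CPM, stand beside these values. With cells past the collagen threshold left out, the epithelial sums were 483 and 956, and Hist1h1d was at 6.75 and 67.0. The genotype and the library cannot be told apart at this stage.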

How the data were processed

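Gene-by-cell UMI counts of 10 libraries of back skin, made with 10x 3' kits, were used as deposited by the authors; they were not normalized before deposit. The submitters' processing notes name Cell Ranger 1.3.1 and 6.1.2, and mm10 was the build. Kept cells had over 1000 and under 6000 genes and under 10% mitochondrial UMIs. UMIs were summed per library and gate (Krt5 and Krt14, or Col1a1 and Col3a1) and divided by all UMIs of those cells to give CPM. Groups were compared with edgeR 4.0.16 (quasi-likelihood, filterByExpr, TMM) in R 4.3.3 over all genes, with Benjamini-Hochberg adjustment at 0.05, and with DESeq2 1.42.0 as an alternative. Fits were tested on simulated data. Python 3.11.15 (numpy 2.4.6, pandas 2.3.3, scipy 1.17.1) did the rest. The study describes pairs of control and MOF cKO embryos. Nothing in the labels says whether libraries of a group came from separate litters. The p-values measure the spread between these libraries, which can hold differences between embryos, such as mosaic deletion, and technical ones.

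Named genes were the 8 with the highest mean CPM per gate and stage, those called (up to 10 with the smallest p), those next to the limit of 50 UMIs, and from each other list those called (up to 4) or the 2 highest. Genes outside this rule, such as Hist4h4, Hist1h1d and Hist2h3b, were named after their values were seen. The members, lists and tests were chosen with earlier results of these data known. Alternatives were other normalizations, filters, gates, DESeq2, a replicate block and leaving out each library. Ratios at E17.5 have exact binomial intervals for counting error. GENCODE M21 gave transcript ends, and stem-loops and motifs were searched by sequence. Doublets were not called.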

Additional observations from a re-analysis of the deposited data

Results flagged for a closer look

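Hist1h4i went in opposite directions in the gates at E15.5: the ratio of MOF cKO to control means was 1.41 in epithelium, where both MOF cKO libraries were above both controls, and 0.887 in fibroblasts, where both were below. The test of the difference, the interaction of gate and genotype in edgeR, gave 0.77 ± 0.27 (log2, SE) with an adjusted p of 0.589 for Hist1h4i. At E17.5 Hist1h1c had a ratio of QPC cKO to control of 2.48 in epithelium and 0.743 in fibroblasts, and Hist1h2bc a ratio of 1.64 and 0.860. With 1 library per group these differences between the gates were not tested.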

How the results depend on the processing

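Histone counts called were also computed under each alternative, and where a value changed the cause was not tested. DESeq2 called 2 histone genes in E15.5 epithelium, against 0.903% of all genes, and 1 in E15.5 fibroblasts, against 3.04%. It called 3 in E16.5 fibroblasts, against 7.56%, and 1 for the stage difference, against 4.93%. In Mki67-positive cells it called 2 in epithelium, against 0.633%, and 1 in fibroblasts, against 2.1%. With no filter on low counts, 3 of 40 were called in each gate at E16.5, against 11.8% of all genes in epithelium and 9.39% in fibroblasts, and 1 of 63 (against 0.104%) in epithelium and 4 of 63 (against 3.9%) in fibroblasts among Mki67-positive cells. Library size alone, which moved the median of all genes in E16.5 epithelium from -0.11 to -0.71, called 1 of 16 and 1 of 35 at E16.5, against 8.17% and 6.66%. A gate of Krt5 and Krt14 of at least 20 called 1 of 37 for the gate difference at E16.5, against 11.2%. The replicate block called 1 in each gate at E16.5, Hist1h1e of 16 in epithelium, against 5.52%, and Hist1h1a of 35 in fibroblasts, against 4.58%. Same-numbered libraries did not deviate together (correlation -0.016 in epithelium and -0.022 in fibroblasts). With 2 libraries per group this cannot show whether they were paired. The study states that 2 pairs of samples were used and that controls were littermates.

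Leaving out each library in turn gave 0 to 18 calls in E15.5 epithelium, 0 to 2 in each gate at E16.5, 0 to 19 for the gate difference at E15.5 and 0 to 1 at E16.5, and 0 to 21 in Mki67-positive epithelium. In the Mki67 comparison, 46 to 52 of the 52 genes called in epithelium were called again, as were all 58 in fibroblasts. The log2 ratio of summed CPM ranged from -0.74 to -0.49 in E15.5 epithelium, -0.48 to -0.14 in E15.5 fibroblasts, -1.38 to -0.41 in E16.5 epithelium and -1.37 to -0.0071 in E16.5 fibroblasts. With all histone UMIs of a gate divided by its Mki67-positive cells it ranged from -0.56 to -0.38, -0.45 to -0.14 and 0.14 to 2.37, and in E16.5 fibroblasts, 0.33 with all libraries, from -0.14 to 1.03, negative without control 1 (-0.14) and without MOF cKO 1 (-0.12).

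At E17.5 the epithelial log2 ratio of sums, 1.06, was 1.16 under 5% mitochondrial UMIs, 0.998 with Krt5 and Krt14 of at least 20, 0.98 without cells past the collagen gate and 1.02 without the top gene. The fibroblast ratio, 1.01, was 0.81 without the top gene, and divided by Mki67-positive cells in the same way, 0.75, it was 0.56 at 2 or more Mki67 UMIs and 0.48 after thinning.

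Single genes also changed sign when 1 library was left out, with log2 fold changes over those fits as follows. At E15.5, Hist1h2ap ranged from -0.91 to 0.13 in epithelium and -0.65 to 0.43 in fibroblasts, above 0 without control 3, and Hist1h2ae in fibroblasts from -0.61 to 0.0101, above 0 without MOF cKO 6. At E16.5 in epithelium, Hist1h2ak ranged from -4.01 to 0.84, above 0 without control 2 and without MOF cKO 2 (0.24). Hist1h2ap ranged from -2.05 to 0.43 and Hist1h2ae from -2.33 to 0.21, and in fibroblasts Hist1h2ak from -4.04 to 0.82, Hist1h2ap from -2.19 to 0.80 and Hist1h2ae from -2.11 to 0.85, all above 0 without control 2. Hist3h2a in epithelium ranged from -0.45 without MOF cKO 2 to 0.96, and was at -0.0953 with library size alone. Hist1h2bc ranged from -1.77 without MOF cKO 2 to 0.78 in epithelium and from -0.55 to 0.0574, without control 1, in fibroblasts. In epithelium it was at -0.49 with library size alone, -0.0526 with Krt5 and Krt14 of at least 20, -0.48 without cells past the collagen gate, -1.25 in cells low in Krt1 and Krt10 and -0.13 with the replicate block.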

Other observations

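The split of Mki67-positive cells by phase list, chosen after seeing the data, also gave values at the other stages, which were not tested. At E17.5, cells with more S-phase than G2M UMIs held 354 histone CPM in control epithelium (440 cells) and 927 in QPC cKO epithelium (139 cells), against 1071 and 1680 in the other Mki67-positive cells. In E17.5 fibroblasts the values were 342 and 683, against 1000 and 2037. At E16.5, fibroblasts of controls 1 and 2 and of MOF cKO 2 had 587, 1281 and 230 on the S-phase side, against 759, 2236 and 856. The S-phase side was the lower in each of these libraries, and at E16.5 it rests on 31 to 104 fibroblasts per library. As at E15.5, the sides are not pure phases.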
